A study of Mus musculus with 2 samples.

Results

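The Wnt ligands, their Frizzled receptors, the Dickkopf (DKK) and secreted Frizzled-related (SFRP) antagonists, and the R-spondins with their LGR receptors were followed in glomerular RNA of mice with experimental lupus nephritis. Members were the genes whose symbol, read through the RefSeq accession of the probe, begins with Wnt, Fzd, Dkk, Sfrp, Rspo or Lgr followed by a digit. This gave 44 genes with 51 probes, of 20659 named genes and 39429 gene probes on the array: 19 Wnt, 10 Fzd, 4 Dkk, 4 Sfrp, 4 Rspo and 3 Lgr genes. All 44 protein-coding mouse genes that fit the pattern in the reference table had a probe. A probe counted as measured when the scanner software called its spot well above background on both arrays, which held for 36 of the 44 genes. Of the remaining 8, 6 were below that level on both arrays and 2 passed it on 1 array only.

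The WT group and the Sirpa-/- group, a podocyte-specific knockout, had 1 one-colour array each. All mice were male and 8 months old, and both groups had been given 0.5 ml of pristane, an oil that induces lupus-like autoimmunity, once into the peritoneum and were followed for 4 months. Sirpa encodes SIRPα, an inhibitory receptor for CD47, and the study's title asks whether podocytes without it present antigen to T cells through the kinase SYK. Glomeruli were pulled with magnetic beads out of digested renal cortex, so the RNA holds podocytes, endothelium, mesangium and whatever else came along; the series design text speaks of podocytes. The sources used here name neither the promoter that drove the deletion nor the number of animals behind each array. Mice without pristane were not analysed here.

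Each group is a single array, so replicates, tests and p-values are lacking, and the comparison is between these arrays alone. A difference is on the log2 scale, Sirpa-/- label minus WT, after each array was scaled to its 75th percentile; a positive value means a higher level on the array labelled Sirpa-/-. Signals are unscaled fluorescence, given for the WT array first and for the array labelled Sirpa-/- second. Sirpa itself goes against the label: its single probe read 11624 and 17315.5, 1.55-fold higher. The sources used here do not say where that probe lies relative to the deleted part, and Sirpa of other glomerular cells is left intact, so it may check nothing; the directions below are those of the labels. Of 15 podocyte markers all 15 were measured, with a median difference of 0.10 and 0 at 2-fold. No spot was saturated, and both arrays lay on the same slide.

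Wnt proteins are lipid-modified secreted signals that bind a Frizzled receptor. Together with the co-receptors LRP5 or LRP6 this stabilises β-catenin, which enters the nucleus and activates genes with TCF/LEF factors; other Frizzled signals act on cell polarity and calcium. DKK proteins block the co-receptors, SFRPs bind the ligands outside the cell, and R-spondins, held by LGR4 to LGR6, keep the ubiquitin ligases RNF43 and ZNRF3 from removing Frizzled. In the kidney the pathway shapes the nephron during development, and sustained β-catenin activity in adult podocytes is known to accompany podocyte injury and proteinuria.

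Promoter sequence is shown for 3 members, to set a secreted inhibitor that is a textbook Wnt target (Dkk1) beside the members with the widest differences among those above the median signal (Dkk2, lower on the array labelled Sirpa-/-, and Rspo1, higher). Each line is the 250 bases before the annotated start, 5′ to 3′ on the gene's strand, from RefSeq on GRCm38.p6: Dkk1 at chr19:30549497-30549746 (minus strand), Dkk2 at chr3:132085042-132085291 (plus strand) and Rspo1 at chr4:124986180-124986429 (plus strand). Capitals mark matches on either strand to the TCF/LEF core (CTTTGA), to the TATA box (TATAAA) and to the GC box (GGGCGG); none of the marked matches overlap.
Dkk1: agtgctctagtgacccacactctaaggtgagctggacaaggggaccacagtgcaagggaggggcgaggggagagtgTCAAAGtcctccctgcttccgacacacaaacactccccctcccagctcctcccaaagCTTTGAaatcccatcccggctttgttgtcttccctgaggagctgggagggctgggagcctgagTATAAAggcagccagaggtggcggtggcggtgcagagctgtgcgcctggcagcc
Dkk2: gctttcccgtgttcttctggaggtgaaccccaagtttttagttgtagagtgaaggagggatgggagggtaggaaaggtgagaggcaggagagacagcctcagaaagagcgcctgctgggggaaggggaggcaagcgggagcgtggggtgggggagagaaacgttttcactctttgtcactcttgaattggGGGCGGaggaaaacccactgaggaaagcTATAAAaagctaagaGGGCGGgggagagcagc
Rspo1: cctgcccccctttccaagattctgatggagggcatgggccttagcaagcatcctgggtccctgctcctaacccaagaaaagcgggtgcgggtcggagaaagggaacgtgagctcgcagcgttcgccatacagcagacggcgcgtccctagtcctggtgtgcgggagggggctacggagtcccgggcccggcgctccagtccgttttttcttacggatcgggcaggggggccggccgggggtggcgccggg

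The Dkk1 window held 2 TCF/LEF cores, starting 174 and 117 bases before the start, and a TATA box 54 bases before it. In the Dkk2 window there were 2 GC boxes and a TATA box, and in the Rspo1 window none of the 3 motifs. Promoter entries matched 29 of the 44 members, with 32 windows. Of these windows 4 (12.5%) held the TCF/LEF core, against 13.8% of all 32851 promoter windows, and 4 (12.5%) held the TATA box, against 12.4%. The GC box was in 22 (68.8%), against 32.7% of all windows, and the median GC content was 67.4% against 52.4%. A match is a run of letters and no evidence of binding.

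Most members differed by less than 1.5-fold between the arrays. Of 36 measured members, Rspo1 and Sfrp1 were higher by 2-fold or more on the array labelled Sirpa-/-, and Lgr5 was lower by 2-fold or more. Among all 18239 measured genes, 1.56% were higher and 1.67% lower by 2-fold or more. At 1.5-fold, 4 members were higher (Rspo1, Sfrp1, Fzd9 and Rspo2) and 4 lower (Lgr5, Dkk2, Sfrp4 and Rspo3), against a background of 4.34% and 5.27%. Together these are 22.2% of the measured members, against 9.61% of all measured genes in either direction. The share was 15% of the 20 members above the median signal and 31.3% of the 16 at or below it. The 9.61% was not split by signal, so brightness is not matched here. The other 28 members (77.8%) differed by less than 1.5-fold. None of the 14 measured Wnt ligands reached 1.5-fold, while all 3 measured R-spondins did. With normexp background correction Rspo2 (0.32) and Rspo3 (-0.57) fell under 1.5-fold. The median difference was -0.07 over the 36 members and 0.00 over all measured genes, with 15 members above 0 and 21 below.

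**Figure D1:**
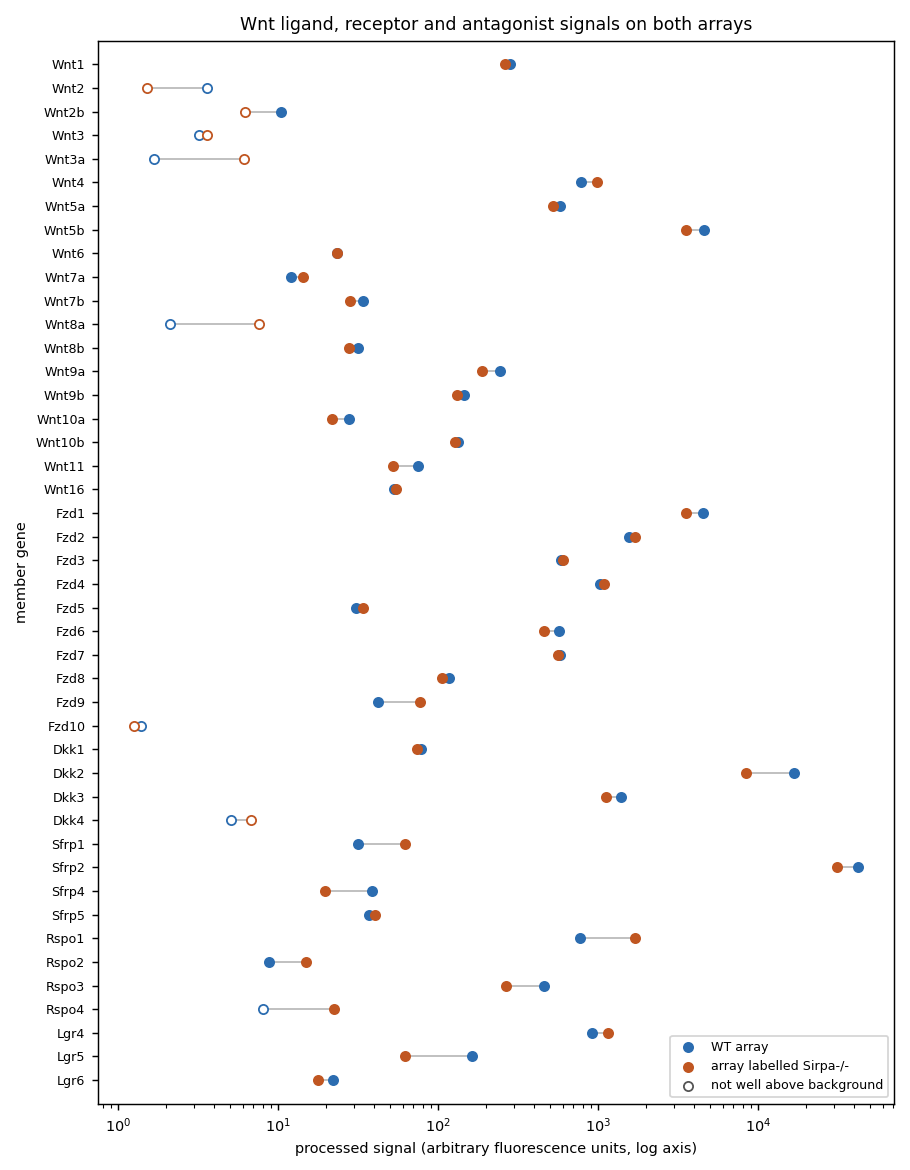
Processed signal of each of the 44 members for WT (blue) and the array labelled Sirpa-/- (orange), on a log axis in arbitrary fluorescence units; open circles were not well above background. Most pairs of points nearly coincide, and the wider gaps among filled points include those of Lgr5, Rspo1, Sfrp1, Sfrp4, Dkk2 and Fzd9.

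Dim spots are the less certain ones, and 15 of the 36 measured members had a mean signal under 100. None of the 51 member probes was spotted more than once, so the technical spread was taken from other gene probes that were spotted 10 times. The SD of their single-spot differences had a median of 0.37 where the dimmer array read under 30 (54 probes), 0.20 from 30 to 100 (46 probes), 0.07 from 100 to 1000 (118 probes) and 0.05 above 1000 (132 probes). The 90th percentiles of these SDs were 1.00, 0.47, 0.18 and 0.07 in the same order, so a single probe can be noisier than its class median. Multiples of the SD given here use the class median. By the class median 19 of the 36 members differed by more than 2 SDs, 8 upward and 11 downward, against 42.6% of all measured genes. This spread holds neither amplification nor animal differences, so it is a lower limit on the error. Brightness also sets how often genes pass the fold: 1.92% of genes above the median signal reached 2-fold in either direction, and 6.09% of those at or below it. Of 20 members above the median signal 1 did so (Rspo1), and of 16 at or below it 2 did (Lgr5 and Sfrp1).

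**Figure D2:**
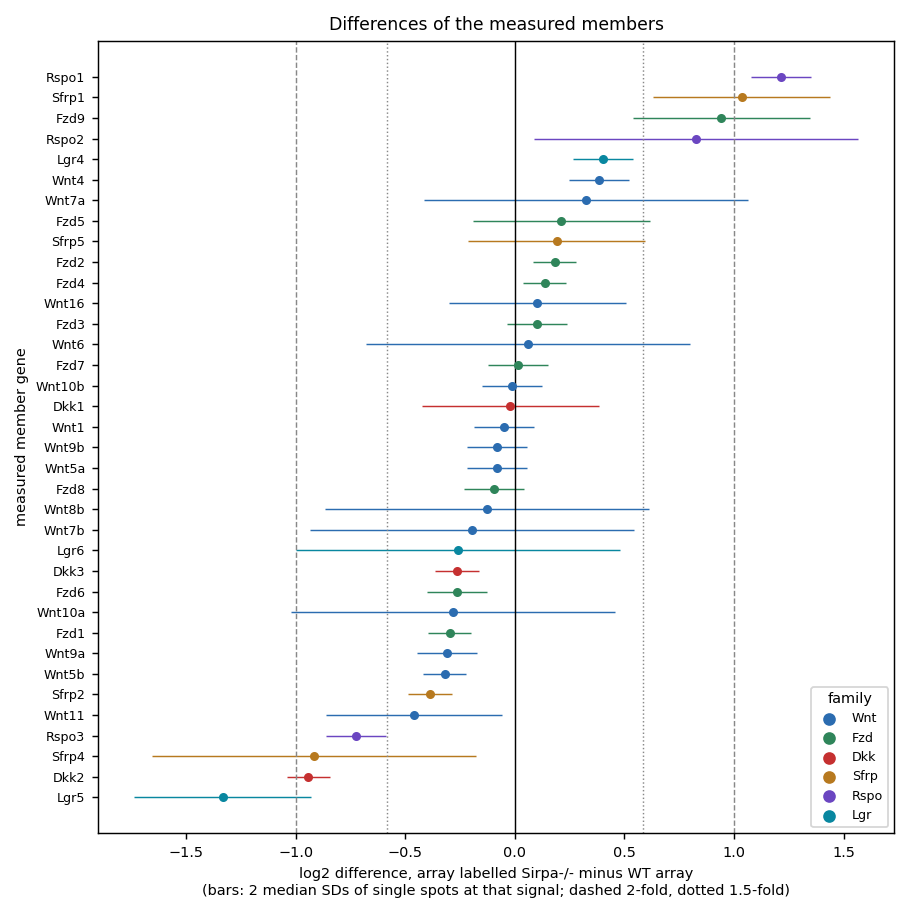
Log2 difference of each of the 36 measured members, Sirpa-/- label minus WT, coloured by family; bars span 2 median single-spot SDs of the matching signal class on each side, dashed lines mark 2-fold and dotted lines 1.5-fold. Rspo1 and Lgr5 lie at the ends, at 1.22 and -1.33, and the bars of dim members such as Rspo2 and Sfrp4 are the widest.

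The Wnt ligands themselves differed little. Of 19 ligand genes 14 were measured, with a median of -0.08 (10 below 0 and 4 above) and a range from -0.46 for Wnt11 to 0.39 for Wnt4. Wnt5b, a ligand mostly tied to β-catenin-independent signalling, read 4594 and 3525, a difference of -0.32. That is 6.50 single-spot SDs but only 1.25-fold, and the scanner software's own error was 0.20. Wnt5a, its close relative, read 580 and 525 (-0.08). Wnt4, which drives nephron formation in the embryonic kidney, read 781 and 977 (0.39) on the probe with the higher signal, and 43.9 and 39.7 (-0.08) on its other probe. The probes of Wnt4 thus gave no common direction.

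The remaining ligands had weaker signals. Wnt9b, which induces the nephron from the ureteric bud, read 144 and 131 (-0.08), and Wnt9a read 244 and 188 (-0.31), beyond 2 SDs of its signal class. Wnt11, which acts at the tips of the branching ureteric bud, read 74.9 and 52.1 (-0.46), and normexp background correction moved this to -0.09. Wnt9a and Wnt11 thus lay beyond the spot spread at under 1.5-fold, and Wnt9b within it. The scanner software's error was 0.20 for Wnt9a and 0.21 for Wnt11. Wnt1 read 283 and 262 (-0.05) on one probe, while its other probe was not well above background on either array, at 2.18 and 1.62. Wnt10b (-0.01), Wnt6 (0.06), Wnt16 (0.10), Wnt8b (-0.13), Wnt7b (-0.19), Wnt10a (-0.28) and Wnt7a (0.33) completed the measured ligands, all within 2 SDs of their signal class.

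Several Wnt genes sit beside each other in the genome, and 4 such pairs are neighbours in the order of protein-coding genes. In the pair of Wnt1 and Wnt10b both differences were near 0 (-0.05 and -0.01), and in the pair of Wnt6 and Wnt10a they were 0.06 and -0.28. In the other pairs, Wnt9a with Wnt3a and Wnt9b with Wnt3, one partner was not measured. Wnt2, Wnt3, Wnt3a and Wnt8a were not well above background on either array, with signals from 1.52 to 7.58, so no fold is given for them. Wnt2b was well above background on the WT array alone (10.4 against 6.22), 1.61-fold lower on the array labelled Sirpa-/- as read. The scanner software's error was 0.48, and with 1 reading short of the background call this fold is no lower limit.

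The Frizzled receptors were nearly level. Of 10 genes 9 were measured, with a median of 0.10, and 8 of them lay between -0.30 and 0.21. Fzd1 read 4554 and 3551 (-0.30). Fzd2 read 1564 and 1699 (0.18), and its other probe gave the same difference to within 0.01 (0.17). Fzd4, the receptor of norrin in vascular development, read 1035 and 1090 (0.14). These 3 receptors differed beyond 2 SDs of single spots, and none reached 1.5-fold. The scanner software's error was 0.20 for each, which is larger than the differences of Fzd2 and Fzd4.

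Fzd6 (-0.27), Fzd3 (0.10), Fzd7 (0.01, and 0.13 on its other probe) and Fzd8 (-0.09) had signals between 106 and 605. Fzd9 was the exception among the receptors, with 41.9 and 77.2, 1.92-fold higher (log2 difference 0.94 ± 0.22, the scanner software's error). It is a dim probe, and normexp background correction gave 0.61. Fzd5 read 30.6 and 34.0 (0.21) on one probe and 33.7 and 24.9 (-0.37) on the other, so it has no direction. Fzd10 was not well above background on either array (1.40 and 1.26).

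The R-spondins, which amplify Wnt signals at the receptor, spread widely and did not move one way. Rspo1 read 768 and 1708, 2.32-fold higher under the Sirpa-/- label (1.22 ± 0.20, software error), 17.8 single-spot SDs. Rspo3 read 457 and 265, 1.65-fold lower (-0.72 ± 0.20), and normexp gave -0.57, under 1.5-fold. Both are well clear of background, and they lie in opposite directions. Rspo2 read 8.80 and 15.0, 1.77-fold higher (0.83 ± 0.34), near the lowest signal called well above background on either array (6.72 and 6.21), and normexp gave 0.32. Rspo4 was well above background on the array labelled Sirpa-/- alone (22.3 against 8.03), 2.90-fold higher as read. Its software error was 0.43, and with 1 reading short of the background call this fold is no lower limit.

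The R-spondin receptors also parted. Lgr5, a receptor and Wnt target gene that marks stem cells of the gut and, in the kidney, cells of the developing nephron, read 163 and 62.0. It was 2.52-fold lower (log2 difference -1.33 ± 0.21, software error), and with normexp the difference was -0.66, under 2-fold. Lgr4, the family member needed for kidney development, read 912 and 1153 (0.40), 1.32-fold higher. Lgr6, at 17.6 on the array labelled Sirpa-/-, gave -0.26, within spot noise. Of the ubiquitin ligases that R-spondins restrain, Rnf43 read 28.8 and 33.9 (0.30) and Znrf3 12.5 and 6.69 (-0.84), both at dim signals.

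**Figure D3:**
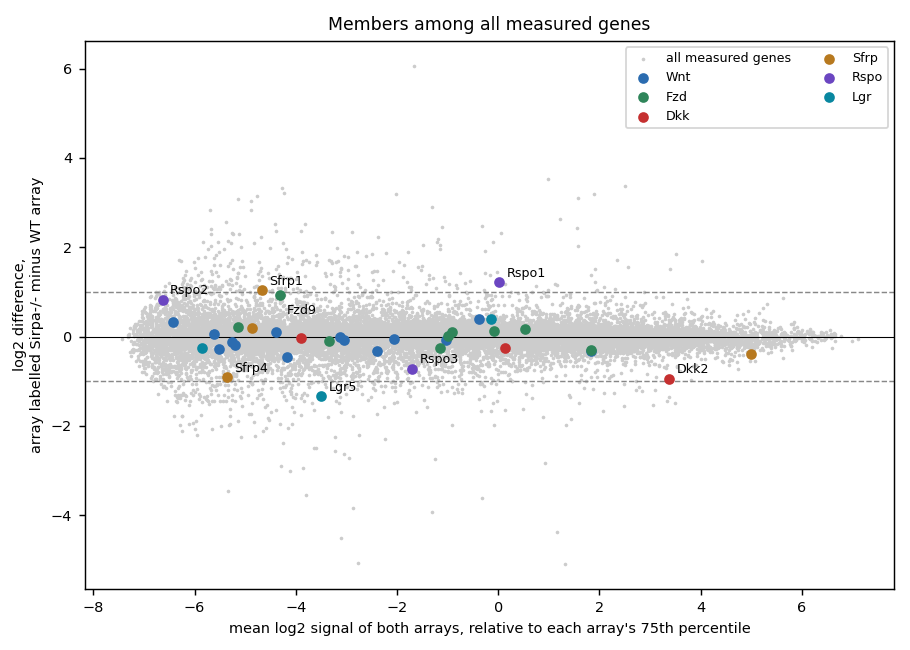
Log2 difference against mean log2 signal for all 18239 measured genes (grey) with the 36 measured members in the colour of their family; dashed lines mark 2-fold and the 8 members past 1.5-fold are named. Rspo1, Rspo3 and Dkk2 lie where grey points past 2-fold are sparse, while Rspo2, Sfrp4, Sfrp1, Fzd9 and Lgr5 lie toward the dim side, where they are denser.

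Among the antagonists Dkk2 stood furthest from 0 at high signal. Dkk2, which binds LRP5 and LRP6 and can inhibit or activate depending on the co-receptor Kremen, read 16743.5 and 8349, 1.92-fold lower (log2 difference -0.94 ± 0.20, software error). Over the alternative settings its difference ranged from -0.95 to -0.87, so it stayed below 2-fold in each. Dkk3, a divergent family member, read 1400 and 1117 (-0.26). Dkk1, the classical secreted inhibitor whose promoter is shown above with its TCF/LEF cores, read 78.1 and 73.7 (-0.02). All 3 measured Dickkopf genes thus lay at or below 0, by very different amounts, and Dkk4 was not well above background (5.06 and 6.76).

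The SFRPs went both ways. Sfrp2, a secreted Wnt-binding antagonist, read 42239 and 30953, 1.31-fold lower (-0.39 ± 0.20). Sfrp1 read 31.8 and 62.4, 2.05-fold higher (1.03 ± 0.22), at a dim signal, and with normexp it was 0.57. Sfrp4 read 38.8 and 19.7, 1.88-fold lower (-0.91 ± 0.24), and normexp took this to -0.09. Sfrp5 read 37.0 and 40.4 (0.19). Of the 4 SFRPs, Sfrp2 alone had signals over 100, and the size of the Sfrp1 and Sfrp4 differences changed with normexp.

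**Figure D4:**
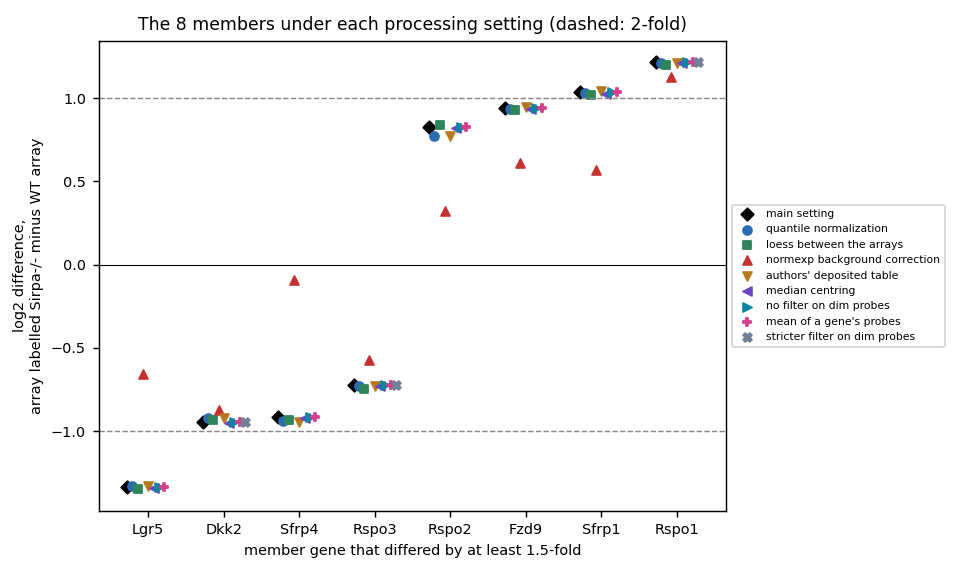
Log2 difference of the 8 members past 1.5-fold under the main setting and each alternative in which they could be computed; dashed lines mark 2-fold. Rspo1 ranges from 1.13 to 1.22 and Dkk2 from -0.95 to -0.87. Normexp background correction (red triangles) pulls Lgr5, Sfrp1, Sfrp4, Rspo2 and Fzd9 toward 0, and Rspo3 to -0.57.

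The other genes of the pathway were described with 8 lists, which share some genes and also hold the members Lgr5 and Dkk1 as target genes. The receptor and intracellular lists had medians near 0. Of the co-receptors and alternative receptors, 10 of 11 were measured and 0 reached 1.5-fold (median 0.04). Lrp5 gave 0.05, Lrp6 -0.29, the alternative receptor Ror2 -0.21, and Tspan12, the partner of Fzd4, -0.34. All 6 genes of Wnt secretion were measured, with a median of 0.03. The acyltransferase Porcn gave 0.11, the Wnt carrier Wls 0.03, Vps35 0.23 and Tmed5 -0.27.

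In the list of canonical signal transduction 20 of 20 genes were measured, 0 reached 1.5-fold on the probe with the highest signal and the median was -0.02. Among their dimmer probes, one of the kinase Gsk3b read 735 and 459 (-0.62, against -0.18 on its brightest probe and 0.37 on another), and one of the kinase Csnk1g1 read 256 and 148 (-0.72, against -0.02). Ctnnb1 (β-catenin) read 41226 and 34545 (-0.19), and the outer values were 0.57 for Tnks and 0.56 for Dvl3, both dim, and -0.22 for Apc2. Of 20 measured nuclear factors (median -0.04) 1 was at least 1.5-fold higher and 0 lower, 5% against 9.61% of all measured genes in either direction. That was the co-repressor Tle1 (0.75, with 0.51 and -0.03 on its other probes), followed by Tle3 (-0.54) and Chd8 (-0.50). Of the 4 TCF/LEF factors, Lef1 gave -0.12, Tcf7 0.11 (0.41 on its other probe), Tcf7l1 0.20 and Tcf7l2 0.36, with 0.83 and -0.41 on the dimmer probes of Tcf7l2.

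The list of other secreted or membrane inhibitors spread as the members' own antagonists did. Of 21 listed, 19 were measured, 4 were at least 1.5-fold higher and 4 lower, together 42.1%, against 9.61% of all measured genes in either direction. At 2-fold 1 was lower, and the median was 0.03. Sostdc1, an inhibitor of Wnt and BMP signals, read 130 and 249 (1.00), and 1.02 on its other probe. Wif1, which binds Wnt proteins, read 2284 and 4059, 1.85-fold higher (0.89). Bambi was 2.02-fold lower at dim signals (18.6 and 8.79), and Frzb, the remaining SFRP-type inhibitor, gave 0.24. The others past 1.5-fold, named after their values were seen, were Shisa3 (0.73) and Tpbg (0.68) above 0, and Sost (-0.65) and Gpc3 (-0.66) below 0 beside Znrf3. Bambi and Gpc3 were counted as listed, but they are not settled as inhibitors of Wnt signals.

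General Wnt target genes had a median of -0.13 over 26 measured genes, 17 below 0 and 9 above. At 2-fold 3 were lower and 0 higher (11.5%), against 1.67% lower and 1.56% higher among all measured genes. At 1.5-fold 5 were lower and 0 higher (19.2%), against 5.27% lower and 4.34% higher. Beside Lgr5, which is also a member, the matricellular gene Ccn4 read 360 and 159 (-1.12, with -0.58 on its other probe) and the receptor Tnfrsf19 1309 and 618 (-1.02, with -0.23 on its other probe). The feedback inhibitor Axin2, the most general readout of β-catenin activity, read 1941 and 1435, 1.30-fold lower (-0.37). Nkd1, another feedback inhibitor, gave -0.45 (-0.21 on its other probe). Sp5 gave -0.25 at dim signals (32.9 and 26.5), under the single-spot SD of 0.37 for its signal class. Of the 9 genes above 0 the largest differences, named after their values were seen, were Ascl2 (0.56) and Ccn5 (0.53), both dim. Bmp4 followed with 0.45 (0.16 on its other probe). With normexp the list's median was 0.06, below the median of 0.07 that this setting gave all genes, and under the other alternatives it ranged from -0.18 to -0.09.

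Of the 19 genes described as Wnt targets in injured kidney and podocytes all were measured, with a median of -0.05. At 1.5-fold 3 were lower and 0 higher (15.8%), against 5.27% lower and 4.34% higher among all measured genes. Jag1, a Notch ligand, read 1456 and 526, 2.65-fold lower (-1.41). S100a4, a marker of fibroblasts and leukocytes, gave -0.93 (-0.90 on its other probe), and the podocyte channel Trpc6 -0.93. In the planar polarity and calcium branch 29 of 31 genes were measured, with a median of 0.00. Celsr3 was 2.15-fold higher at dim signals (27.7 and 57.1), Camk2b 2.40-fold lower on one probe (-1.26) and at 0.14 on the other, and Prickle1 gave -0.52. Over all 142 measured genes of the 8 lists, Lgr5 and Dkk1 included, 4.93% reached 2-fold in either direction, against 3.23% of all measured genes.

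**Figure D5:**
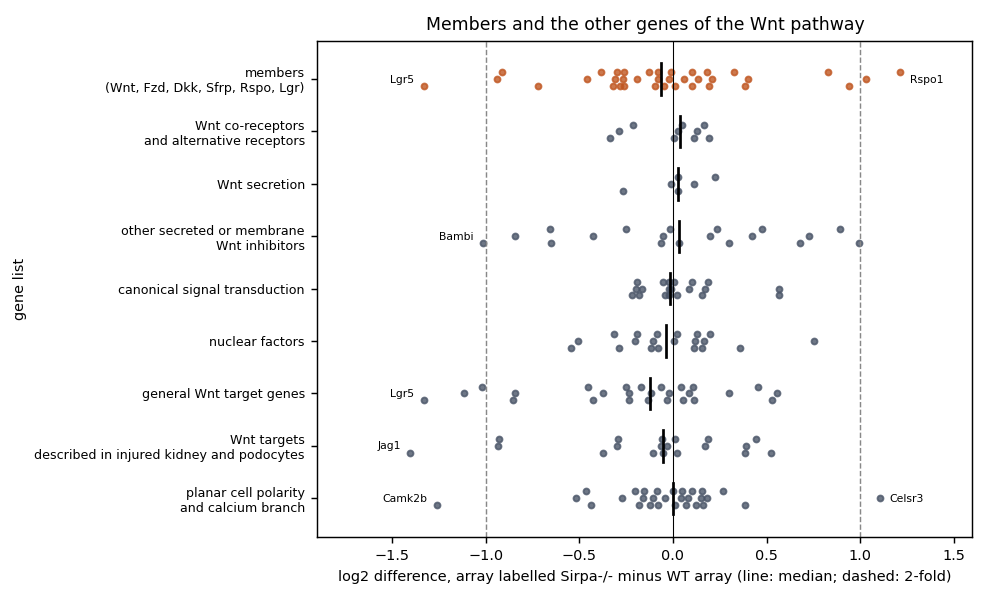
Log2 difference of the measured members (orange) and of the measured genes of 8 other Wnt pathway lists (grey), one point per gene, with the median of each list as a black line and 2-fold as dashed lines. Members, secreted or membrane inhibitors and target genes spread past 1.5-fold on 1 or both sides. So do Tle1 (0.75) of the nuclear factors and Camk2b (-1.26) and Celsr3 (1.11) of the polarity and calcium branch. Co-receptors, secretion and transduction genes lie within 0.6 of 0. Lgr5 and Dkk1 are shown both as members and as target genes.

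Markers of other cells moved between the arrays as well. B cell markers had a median of 1.29 (10 of 10 above 0, summed scaled signal 1.097 and 3.80), erythroid markers 1.503 (5 of 6 above 0, 15.7 and 48.1) and loop and distal tubule markers 0.60 (9 of 10 above 0, 15.0 and 17.2). Most of the loop and distal tubule sum is Egf, with signals of 14673 and 14373 in a WT total of 17341. In that list 4 markers (40%) were at least 2-fold higher, against 1.56% of all measured genes. T cell markers had a median of 0.36 (9 of 10 above 0, 2.28 and 2.74). Of them 4 (40%) were at least 1.5-fold higher, against 4.34% of all measured genes. Mesangial and smooth muscle markers had a median of 0.01 (6 of 11 above 0) and a lower sum (106 and 89.7). Medians were -0.05 for glomerular endothelial markers and -0.02 for macrophage and monocyte markers. Proximal tubule markers had a median of -0.33 (12 of 12 below 0, 32.2 and 24.4). Parietal epithelial markers had a median of -0.10 (4 of 8 below 0, 21.1 and 14.2), a list that holds Dkk3. Most of that sum is Cd9, with signals of 20792 and 12677 in a WT total of 24460. Fibroblast and interstitial markers, relevant to Rspo1, Rspo3 and the SFRPs as stromal products, had a median of 0.23 but a lower sum (6 of 10 above 0, 45.2 and 41.3), with Dpt not above background. Most of this sum is Pi16, with signals of 30513 and 19796 in a WT total of 52347, while Col1a1, Col1a2 and Col3a1 were higher. Collecting duct markers had a median of 0.15 (8 of 11 above 0, 0.865 and 1.03). The part of these cells in the differences of the Wnt genes was not tested, and in bulk RNA fewer cells of a type and less RNA per cell cannot be told apart.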

How the data were processed

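Glomerular RNA of 1 WT and 1 Sirpa-/- sample was hybridised to Agilent one-colour arrays. The deposited scanner files hold fluorescence intensity, background-subtracted and spatially detrended with Agilent Feature Extraction 11.0.1.1 per the file headers (9.1 per the submitters' processing notes), with no scaling between arrays. Other columns used are the software's error and quality flags of 0 or 1, which are other values per the file headers. A value table deposited by the authors is in log2 units, with its steps not given in the sources used here. Its columns shared a median of 6.50 and matched their own arrays best (r = 0.994 for both across probes, 0.986 with the other array), and it served as an alternative.

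Spots marked as outliers were left out, log2 was taken, spots of a probe were averaged, and each array's 75th percentile over gene probes was subtracted (signals of 1157 for WT and 1109 for the array labelled Sirpa-/-). Well above background were 85.3% and 86.7% of gene probes. A gene was represented by its measured probe of highest mean signal. Names came from RefSeq accessions in a GRCm38.p6 gene table (27234 of 28684 accession probes matched). For the 2 members above background on 1 array only, the fold is the scaled bright signal over the scaled dim signal. The lowest well-above-background signal of that array was to replace the dim signal where higher. It was not higher for either member, so these folds are plain ratios and no lower limits. Alternatives used limma 3.58.1 in R 4.3.3 and Python 3.11.15; normexp used spot median signals, as no mean signal column is in the files, with an offset of 50. The probe summary was tested on simulated data. Named genes were all members, the 3 largest differences of each pathway list and a fixed set of pathway genes. The members and lists were chosen with earlier results of these data known.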

Additional observations from a re-analysis of the deposited data

How the results depend on the processing

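All 8 members past 1.5-fold kept their direction under each alternative that could be computed for them. At 2-fold, the counts of members higher and lower (2 and 1) were the same under quantile normalization, loess, median centring, the authors' deposited table and the mean of a gene's probes. Normexp gave 1 and 0 with a median of 0.0666 (-0.0654 in the main setting), no filter on dim probes 5 and 2 over 44 genes, the stricter filter 1 and 0 over 20 genes, and a 1.5-fold threshold 4 and 4. Over all genes, 285 were higher and 304 lower (48.4% higher); normexp gave 113 and 79 (58.9% higher), no filter 670 and 613, and the stricter filter 113 and 127. The stricter filter keeps fewer genes by construction. Normexp changed the background correction, the signal column and the offset together, and the cause of its lower counts was not tested. Of 272 alternative values of single members, 253 moved by less than the single-spot SD and 19 by more. Many of them could hardly move, so the total is no measure of robustness. The filter settings repeated the main value of each member they kept, and median centring shifted all members alike. Averaging probes could change only the 6 members with 2 measured probes. The values that moved came from normexp, apart from Fzd5 and Wnt4 under the mean of a gene's probes. No paired analysis was possible because each group has 1 array. Signals under about 30 limit what can be said of Rspo2, Sfrp4 and 6 members below background on both arrays.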
